A study of Mus musculus with 6 samples.

Results

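Monoamine oxidases A and B, 3 aldehyde dehydrogenases and a low-affinity amine transporter are described here as they were measured in ribosome-bound RNA of mouse serotonin neurons and in the RNA left behind in the same tissue lysate. The 6 genes, Maoa, Maob, Aldh2, Aldh3a2, Aldh7a1 and Slc29a4, were taken by name, as every probe set whose only gene symbol was one of theirs. That gave 14 of 45101 probe sets, for 6 of the 18193 genes that have a probe set of their own on the Affymetrix expression array. The IP group held 3 samples of RNA pulled down with tagged ribosomes by translating ribosome affinity purification (TRAP), and the unbound group held the RNA that stayed in solution in 3 such purifications, which stands for the whole tissue. All samples came from mice of the Slc6a4 JD60 line, genotype Slc6a4 JD60, on a mixed FVB and C57BL/6J background, carrying a bacterial artificial chromosome transgene. The regulatory region of Slc6a4, the serotonin transporter gene, drives the ribosome tag in this line, so cells in which that region is active without serotonin being made would be pulled down too. Both sexes were used at 6 to 12 weeks of age, 5 animals were pooled for each sample, and the dissection kept midbrain and hindbrain from the pontine border to the foramen magnum and discarded the cerebellum. The groups share animals, strain and tissue but differ in the cells that gave the RNA and in its being on ribosomes, which cannot be told apart. In bulk samples of this kind, fewer cells of a type and less RNA per cell cannot be told apart either.

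Serotonin that is taken back into the neuron and not repacked into vesicles is oxidised on the outer mitochondrial membrane by monoamine oxidase, a flavin enzyme that exists in an A and a B form. MAO-A prefers serotonin and noradrenaline, MAO-B prefers phenylethylamine and benzylamine, and both oxidise dopamine. The product of serotonin is a reactive aldehyde, which aldehyde dehydrogenases turn into 5-hydroxyindoleacetic acid. Immunostaining in rodents and primates has placed MAO-B in serotonin neurons, histamine neurons and astrocytes, and MAO-A mainly in catecholamine neurons. Beside the high-affinity serotonin transporter, organic cation transporters of low affinity and high capacity, the plasma membrane monoamine transporter PMAT (Slc29a4) among them, carry serotonin and dopamine across the membrane.

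The sample labels were checked first. Slc6a4 averaged 14.20 ± 0.12 log2 units on IP arrays and 9.05 ± 0.07 on unbound arrays (SD, n = 3 each), and 8 of 8 serotonin neuron markers were higher in IP, 7 of them with both group means over the detection limit defined next. The deposited values had been normalised within each group separately, so IP values were shifted by -0.23 to align the biotin hybridisation controls, and every difference between IP and unbound RNA rests on that step. Genes entered the test if 3 or more of the 6 arrays were at log2 5 or above, called the detection limit, and a gene was called higher or lower where limma's adjusted p was under 0.05 and the change at least 2-fold. Most tested genes lay lower in IP under this scaling, with a median log2 change of -0.65 over 10581 genes. A gene that is over the limit in 1 group alone could pass only by being higher there, so counts are also given for genes with both group means at or over the limit. Of 8856 such genes 10.4% were called higher and 33.2% lower. Precision is limited by the number of arrays.

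Promoter windows were available for 3 of the 6 genes, but not for Maob, Aldh2 or Aldh7a1. They are shown with the GC box marked, the GGGCGG element bound by Sp1 and Krüppel-like factors. These factors are known to act on monoamine oxidase promoters in human cells. Each window holds the 250 bases before the annotated start in the RefSeq table of build GRCm38.p6, 5′ to 3′ on the gene's strand, with GGGCGG on either strand in capitals. The Slc29a4 window (chr5:142701851-142702100, plus strand) holds 9 matches, the last pair overlapping by 2 bases, the Maoa window (chrX:16619448-16619697, plus strand) holds 1 and the Aldh3a2 window (chr11:61267187-61267436, minus strand) holds 1.
Slc29a4: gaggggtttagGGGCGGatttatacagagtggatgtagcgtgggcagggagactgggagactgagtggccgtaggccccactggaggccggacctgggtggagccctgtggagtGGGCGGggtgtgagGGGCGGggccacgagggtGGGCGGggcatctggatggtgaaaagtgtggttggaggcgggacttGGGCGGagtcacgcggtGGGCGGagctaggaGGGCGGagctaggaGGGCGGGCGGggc
Maoa: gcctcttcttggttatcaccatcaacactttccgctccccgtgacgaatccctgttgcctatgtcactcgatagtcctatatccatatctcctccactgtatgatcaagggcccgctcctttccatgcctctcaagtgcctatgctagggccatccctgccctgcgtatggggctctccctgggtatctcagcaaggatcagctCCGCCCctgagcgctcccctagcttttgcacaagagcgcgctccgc
Aldh3a2: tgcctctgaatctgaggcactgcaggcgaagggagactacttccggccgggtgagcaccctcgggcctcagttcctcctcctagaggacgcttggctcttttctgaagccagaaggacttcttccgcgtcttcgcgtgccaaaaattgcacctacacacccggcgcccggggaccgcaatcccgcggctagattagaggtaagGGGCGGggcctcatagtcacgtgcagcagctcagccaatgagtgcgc
At least 1 match was present in 32.7% of 32851 such windows and at least 9 in 0.0731% of them. The letters GATA, searched on both strands with overlaps counted, occurred 5 times in the Maoa window, as in 1.20% of windows with at least 5, and at no position in the other windows shown. A match of letters is a description of the window and not a binding site.

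Of the 6 genes, all of which passed the filter, Maob and Maoa rose in IP and Aldh2 fell. By this rule 10.4% of all tested genes were called higher and 41.1% lower. Aldh3a2, Aldh7a1 and Slc29a4 were not called. The median log2 change of the 6 genes was 0.27, against -0.65 over all tested genes. All 6 had both group means over the detection limit, and over all such genes the median was -0.43.

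**Figure D1:**
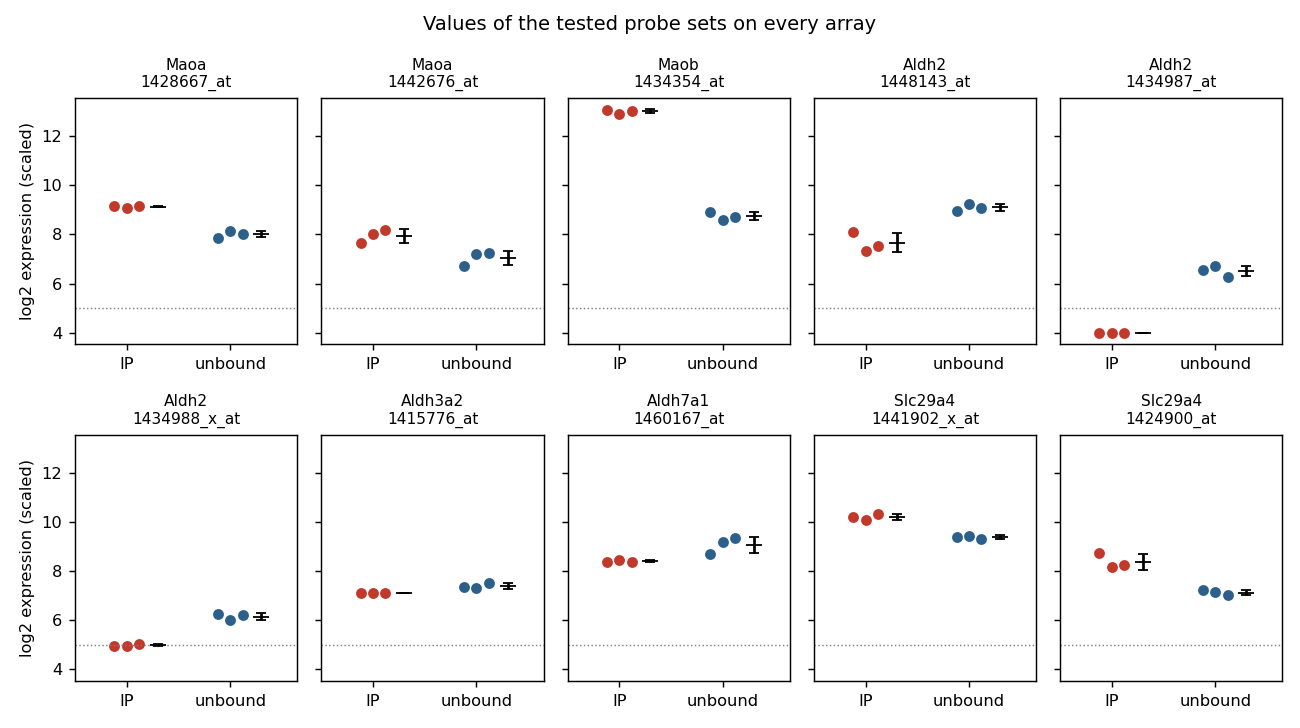
Scaled log2 expression of the 10 tested probe sets of the 6 genes on each of the 3 IP (red, left) and 3 unbound (blue, right) arrays; bars are the mean with the SD, and the dotted line is the detection limit of 5. The Maob values lie between 12.91 and 13.08 in IP, against 8.60 to 8.91 in unbound RNA, and no panel shows an overlap between the groups.

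Maob, the gene of the B form, had by far the largest change of the 6. Its probe set 1434354_at read 13.08, 12.91 and 13.03 log2 units on the IP arrays, against 8.91, 8.60 and 8.69 on the unbound arrays. The lowest IP value was thus above the highest unbound value, a state shared by 23.9% of tested genes in that direction. The mean was 13.00 ± 0.09 on IP arrays and 8.73 ± 0.16 on unbound arrays (SD, n = 3 each), a 19.3-fold rise (limma, log2 change 4.27 ± 0.11 SE, 95% interval 4.01 to 4.54, adjusted p = 6.99e-07). Among the 8856 genes with both group means at or over the detection limit, Maob ranked 9 by the size of its increase. Astrocytes are another known site of MAO-B, and the 6 of their 10 markers with both group means over the limit were all lower in IP. The summed linear signal of these markers was 9035 to 11265 on IP arrays and 34177 to 44408 on unbound arrays, and Acsbg1, Fgfr3, Slc1a3 and Sox9 were under the detection limit on all 3 IP arrays, so the filter fixed the direction of these 4. The gene of histidine decarboxylase, Hdc, the defining marker of histamine neurons, had a mean of 4.95 ± 0.28 on IP arrays, under the limit, and 7.28 ± 0.19 on unbound arrays (SD, n = 3 each), so that the filter bore on its direction. Whether the dissected tissue held histamine neurons was not tested.

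Maoa, the gene of the A form, rose far less, and only just past the 2-fold limit. Its brighter probe set, 1428667_at, gave 9.15, 9.09 and 9.15 log2 units in IP, against 7.87, 8.13 and 8.02 in unbound RNA, without overlap. The mean was 9.13 ± 0.03 on IP arrays and 8.01 ± 0.13 on unbound arrays (SD, n = 3 each), a 2.17-fold rise (limma, log2 change 1.12 ± 0.09 SE, adjusted p = 6.92e-05). Its 95% interval of 0.89 to 1.35 includes changes under 2-fold. The other probe set, 1442676_at, read 7.64, 8.02 and 8.18 in IP, against 6.73, 7.20 and 7.24 in unbound RNA, again without overlap. With every probe set tested by itself it changed by 0.89 ± 0.20 (log2, SE, limma, adjusted p = 0.00731), the same direction but under the 2-fold limit. Markers of catecholamine neurons, the cells best known for MAO-A, were lower in IP in the 3 cases with both group means over the limit, Dbh, Slc6a3 and Nr4a2. Th, Slc6a2 and Phox2a were under the detection limit on all 3 IP arrays, and Th and Slc6a2 passed the filter through the unbound arrays alone. Their summed linear signal was 175 to 234 on IP arrays and 1759 to 1847 on unbound arrays.

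The oxidase genes are direct neighbours on the X chromosome, with 0 protein-coding genes between them in the RefSeq annotation, yet their changes differed. Within each array the difference Maob minus Maoa cancels any shift common to the array, and its change, IP minus unbound, was 3.15 ± 0.17 log2 units (SE). On the IP arrays this difference lay between 3.82 and 3.93, and on the unbound arrays between 0.46 and 1.04. An exact two-sided permutation test over the arrays gave p = 0.1, which is the smallest value that 3 arrays against 3 allow (adjusted p = 0.1 over the 21 pairs compared, the 15 among the 6 genes and each gene against Slc6a4). Measured the same way, Maob changed by -0.88 ± 0.14 log2 units (SE) relative to Slc6a4 itself, with the IP arrays below the unbound arrays and the same exact p = 0.1. All 21 pairs, 15 of them among the 6 genes, were without overlap between the groups, so this separation is not particular to any pair.

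Aldh2, the mitochondrial aldehyde dehydrogenase that is the main candidate for the second step of serotonin breakdown, fell in IP. Its brightest probe set, 1448143_at, read 8.08, 7.34 and 7.52 log2 units in IP, against 8.96, 9.24 and 9.09 in unbound RNA. The 3 IP values were all below the unbound values, as in 59.1% of tested genes, and IP replicate 1 was the highest of them. The mean was 7.65 ± 0.39 on IP arrays and 9.10 ± 0.14 on unbound arrays (SD, n = 3 each), 2.72-fold lower in IP (limma, log2 change -1.45 ± 0.21 SE, 95% interval -1.95 to -0.94, adjusted p = 8.60e-04). That call was lost under quantile normalisation over all arrays (log2 change -0.74), with arrays centred on the median of expressed probe sets (-0.70) and on the median of all probe sets (-0.42).

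Of the other Aldh2 probe sets, those tested were also lower in IP, but with IP means under the detection limit, and the rest were not tested. Probe set 1434987_at gave the same value of 3.99 on all 3 IP arrays, under the detection limit, against 6.54, 6.71 and 6.28 in unbound RNA, at least 2.85-fold lower in IP (limma, every probe set tested by itself, adjusted p = 8.90e-06). Because it passed the filter through the unbound arrays alone, its direction was fixed by the filter. Probe set 1434988_x_at read 4.95, 4.95 and 5.02 in IP, against 6.25, 6.00 and 6.20 in unbound RNA (by limma, log2 change -1.17 ± 0.09 SE, adjusted p = 6.71e-05). Its IP mean of 4.98 was under the limit, so the filter bore on its direction. The name ending x_at marks probes that may also bind related transcripts. The probe sets 1457155_at and 1437410_at stayed under the limit on all 6 arrays and were not tested, with means of 2.50 and 1.98 in IP, against 3.93 and 2.57 in unbound RNA. Relative to Aldh2 within each array, Maob changed by 5.72 ± 0.25 log2 units and Maoa by 2.57 ± 0.21 (SE), each without overlap between the groups (exact permutation test, p = 0.1). Such a lack of overlap was shared by all 21 pairs compared. In the brain ALDH2 is known from astrocytes as well as neurons, and the lower astrocyte markers given above stand beside this fall. Their part in it was not tested.

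The other aldehyde dehydrogenases among the 6 genes were near the middle of all genes. Aldh3a2 encodes fatty aldehyde dehydrogenase of the endoplasmic reticulum, which oxidises long-chain aldehydes. Its only probe set, 1415776_at, gave the same value of 7.11 on every IP array, against 7.36, 7.31 and 7.52 in unbound RNA (by limma, log2 change -0.29 ± 0.08 SE, adjusted p = 0.0185). The IP SD of 0 comes with the deposited values, in which 15.8% of IP probe sets with a mean of at least 5 are identical on all 3 arrays, against 0.481% of unbound ones. The sign of the Aldh3a2 change turned under quantile normalisation (0.61) and with the median of expressed (0.45) or of all probe sets (0.74).

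Aldh7a1, the gene of antiquitin, acts in lysine breakdown and oxidises several other aldehydes. Probe set 1460167_at read 8.38, 8.45 and 8.38 in IP, against 8.71, 9.16 and 9.33 in unbound RNA, where unbound replicate 1 was the lowest. The log2 change was -0.66 ± 0.17 SE (limma, 95% interval -1.07 to -0.26, adjusted p = 0.0108), under the 2-fold limit. It differed from the median of all tested genes by -0.01 and was below the median of genes with both group means over the limit (-0.43). With arrays centred on the median of expressed or of all probe sets the sign of the Aldh7a1 change turned (0.08 and 0.37). The probe sets 1448137_at and 1415902_at were under the detection limit on all arrays and were not tested. They held a single repeated value in each group, 3.37 and 1.98 in IP, against 3.06 and 2.17 in unbound RNA.

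Slc29a4, the PMAT gene, was higher on every IP array by either probe set, although the brighter one missed the 2-fold limit. Probe set 1441902_x_at read 10.18, 10.08 and 10.33 log2 units in IP, against 9.40, 9.43 and 9.29 in unbound RNA. This probe set, by which the gene was read, has the ending x_at for probes that may also bind related transcripts. Its mean was 10.20 ± 0.12 on IP arrays and 9.37 ± 0.07 on unbound arrays (SD, n = 3 each), a ratio of 1.77 (limma, log2 change 0.82 ± 0.09 SE, 95% interval 0.59 to 1.06, adjusted p = 3.16e-04). Probe set 1424900_at read 8.73, 8.15 and 8.23 in IP, against 7.21, 7.16 and 7.01 in unbound RNA, and was called higher when every probe set was tested by itself (2.37-fold, log2 change 1.25 ± 0.17 SE, limma, adjusted p = 8.11e-04). In that fit the IP arrays lay above the unbound arrays for 5 of the 10 tested probe sets of the 6 genes and below them for the other 5, as they did for 23.1% and 59.7% of all probe sets tested. By the call rule 10.4% of the tested probe sets were called higher and 43.0% lower, and of those 10 probe sets 3 were higher and 3 lower. The lower ones were all from Aldh2, and 1434987_at and 1434988_x_at among them had IP means under the detection limit. The mean of both Slc29a4 probe sets was also called (1.03), as was the gene without scaling (1.06), under quantile normalisation (1.30) and with the median of expressed (1.57) or of all probe sets (1.85). The choroid plexus is another known site of PMAT, and 6 of the 8 ependymal and choroid plexus markers, Kcnj13, Clic6 and Folr1 among them, were under the detection limit on all 3 IP arrays. Of these, the 3 that were tested (Ccdc153, Kcnj13 and Clic6) passed the filter through the unbound arrays alone. Of the 2 with both group means over the limit, Dynlrb2 was 2.09-fold higher in IP (limma, adjusted p = 0.00250) and Ttr was lower. Ttr, the main choroid plexus transcript, was still bright in either fraction, reading 13.79 ± 0.27 on IP arrays and 15.52 ± 0.22 on unbound arrays (SD, n = 3 each). The summed linear signal of the list was 12687 to 17988 on IP arrays and 40319 to 53918 on unbound arrays. Most of that sum came from Ttr in either group, so it says little about the other markers.

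**Figure D2:**
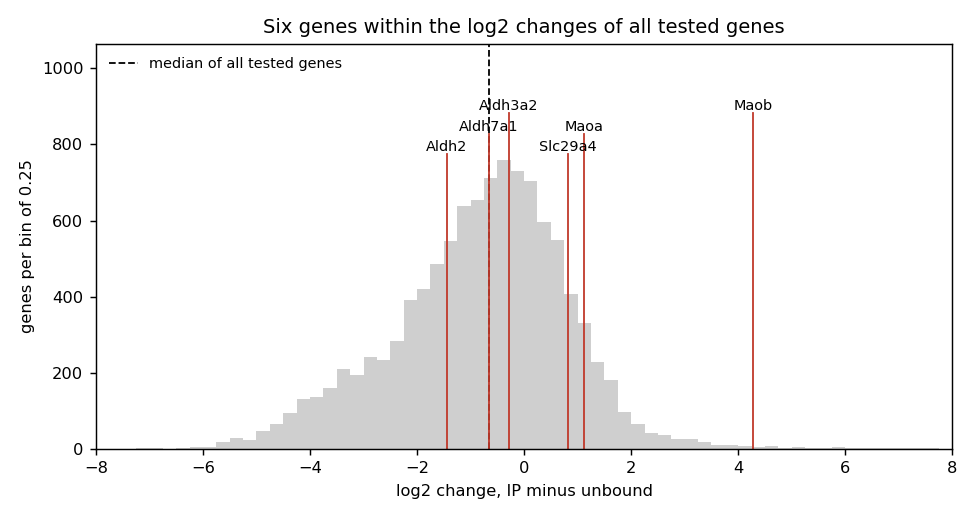
Histogram of the log2 change, IP minus unbound, over the 10581 tested genes in bins of 0.25, with the 6 genes as red lines and the median of all tested genes (-0.65) as a dashed line. Maob stands in the upper tail at 4.27, Maoa at 1.12 and Slc29a4 at 0.82 lie right of most genes, and Aldh7a1 falls on the median.

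The order of the log2 changes, Maob, Maoa, Slc29a4, Aldh3a2, Aldh7a1 and Aldh2 from high to low, was the same under all 7 scalings between groups. For every scaling but quantile normalisation, which is no shift per array, that order follows largely from the construction. Maoa and Slc29a4 were close neighbours in it: the change of Maoa minus Slc29a4 was 0.30 ± 0.10 log2 units (SE, exact permutation test, p = 0.1), and it was -0.03 with the mean of each gene's probe sets. The scaling to the poly-A spike controls, which moved the median of all tested genes to -3.37, put Maob at 1.60 and turned the sign of Maoa (-1.56) and Slc29a4 (-1.85).

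**Figure D3:**
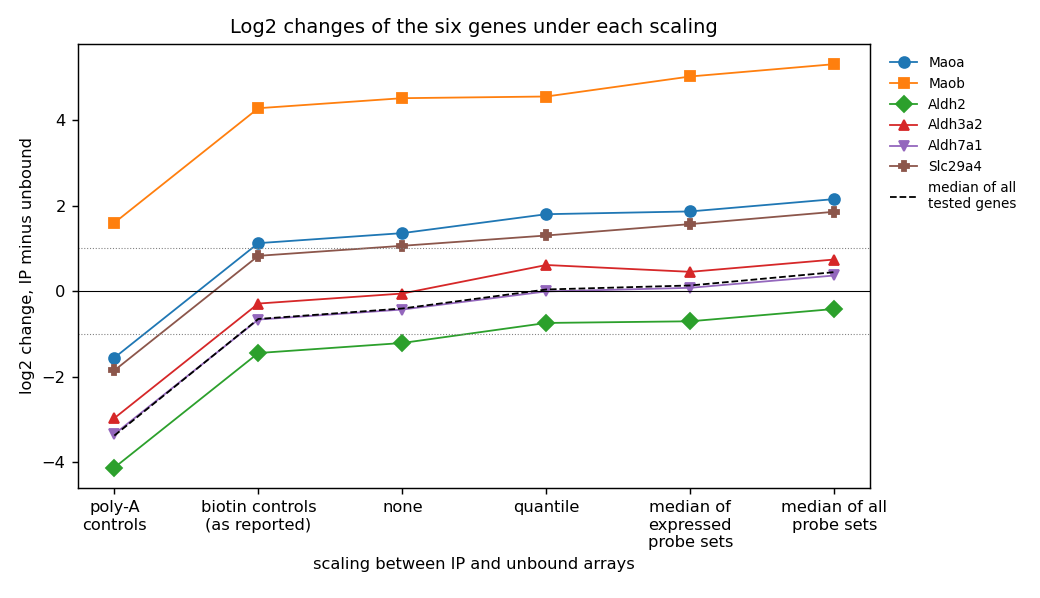
Log2 change of the 6 genes, IP minus unbound, under 6 ways of scaling the IP to the unbound arrays, with the median of all tested genes (dashed) and the 2-fold limits (dotted). Maob stays above the upper limit in every column shown, from 1.60 to 5.30, while Maoa and Slc29a4 are below 0 with the poly-A controls, and the lines keep their order.

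Around these genes, 6 lists of related enzymes and transporters held 71 symbols, of which 59 had a probe set of their own and 31 were tested. Of the 31, 3 were higher and 18 lower in IP, but in 11 of the 31 the dimmer group had a mean under the detection limit, so that the filter fixed the direction. Of the other 20, 2 were higher and 9 lower, with a median log2 change of -0.47, against -0.43 over the 8856 genes with both group means over the limit. Of those 8856 genes 10.4% were called higher and 33.2% lower, and of all tested genes 10.4% and 41.1%.

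Of the remaining aldehyde dehydrogenases, 9 of the 17 on the list were tested, and 7 fell and 1 rose. With both group means over the limit, 4 of 5 fell and 0 rose. Aldh1a1, which makes retinoic acid and marks a group of midbrain dopamine neurons, averaged 9.08 ± 0.11 on IP arrays and 12.84 ± 0.20 on unbound arrays (SD, n = 3 each), 13.6-fold lower in IP. Aldh1a2, another retinoic acid enzyme, and Aldh1l2, a mitochondrial folate enzyme, were under the detection limit on all 3 IP arrays and at least 9.11-fold and 4.37-fold lower. The exception was Aldh3b2, a lipid aldehyde dehydrogenase with close paralogs in the mouse, at least 7.81-fold higher in IP. It read the same 7.96 on all 3 IP arrays and had a mean of 2.39 ± 0.06 in unbound RNA (SD, n = 3), under the detection limit. The filter thus fixed the direction of Aldh3b2.

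Aldehydes can also be reduced to alcohols, the minor route for serotonin. Of 7 tested aldehyde and alcohol reductases, Akr7a5 rose and Cbr3, Akr1b10 and Adh5 fell. With both group means over the limit, 1 of 6 rose and 2 fell, and the filter fixed the direction of Cbr3. Akr7a5, which reduces small aldehydes, averaged 11.23 ± 0.14 on IP arrays and 9.996 ± 0.07 on unbound arrays (SD, n = 3 each), 2.36-fold higher (limma, log2 change 1.24, adjusted p = 5.45e-05). The carbonyl reductase gene Cbr3 was at least 2.84-fold lower, Akr1b10 3.78-fold lower, and Adh5, the formaldehyde-clearing dehydrogenase, 2.21-fold lower. The Adh5 call was lost without scaling (log2 change -0.91), under quantile normalisation (-0.95), with the median of expressed (-0.40) or of all probe sets (-0.11) and by the mean of its probe sets (-0.66), and the Akr1b10 call with the median of all probe sets (-0.89). Among other enzymes that inactivate amines, 1 of 5 tested genes rose and 2 fell. With both group means over the limit, 1 of 3 rose and 0 fell. Comtd1 was 2.30-fold higher in IP and gave 1 repeated value of 10.24 on the IP arrays. The sulphotransferase gene Sult1a1 and the acetyltransferase gene Nat2 were at least 1.64-fold and 1.38-fold lower, bounds under 2-fold. Both were under the detection limit on all 3 IP arrays, so the filter fixed their direction. The rises of Akr7a5 and Comtd1 turned into falls under the poly-A scaling.

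Among the oxidases of other amines, all 3 tested genes were lower in IP, but Smox alone had both group means over the detection limit. Ddo, which oxidises D-aspartate, was at least 12.0-fold lower and Rnls, the renalase gene, at least 1.12-fold, a bound under 2-fold. Both were under the limit on all 3 IP arrays, so the filter fixed their direction. Smox, the spermine oxidase gene, was 4.49-fold lower and gave 1 repeated value of 6.73 on the IP arrays. By the mean of its probe sets its log2 change was -1.49, against -2.17. The remaining 4 of 7 genes on the array, Aoc1, Aoc3, Il4i1 and Dao, did not pass the filter. Of the other organic cation and nucleoside transporters, 4 of 7 were tested and 3 were lower. With both group means over the limit, 2 of 2 were lower. The ergothioneine and cation transporter gene Slc22a4 was at least 1.89-fold, the carnitine transporter gene Slc22a5 3.49-fold and the nucleoside transporter gene Slc29a3 3.02-fold lower in IP. Slc22a4 was under the limit on all 3 IP arrays, so the filter fixed its direction, and its bound is under 2-fold. Slc22a5 gave 1 repeated value of 6.08 on the IP arrays. The Slc22a5 call was lost under quantile normalisation (log2 change -0.85) and with the median of all probe sets (-0.77), the Slc29a3 call under these (-0.35 and -0.57) and with the median of expressed probe sets (-0.85), and the Slc22a4 call with the median of all probe sets (-0.85). Slc29a2 was not called and was under the limit on all 3 IP arrays. Slc22a2 was under the limit on every array.

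Monoamine oxidases need flavin adenine dinucleotide. Of 3 tested genes that supply it, limma called 0, and 0 had an unadjusted p under 0.05. Flad1, the gene of its synthase, had a log2 change of 0.51 and Rfk, the riboflavin kinase gene, one of 0.28. Both became called with arrays centred on the median of expressed probe sets (1.25 and 1.03) and of all probe sets (1.54 and 1.31), Flad1 also under quantile normalisation (1.39) and Rfk by the mean of its probe sets (1.13), and both were negative with the poly-A controls (-2.17 and -2.39).

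**Figure D4:**
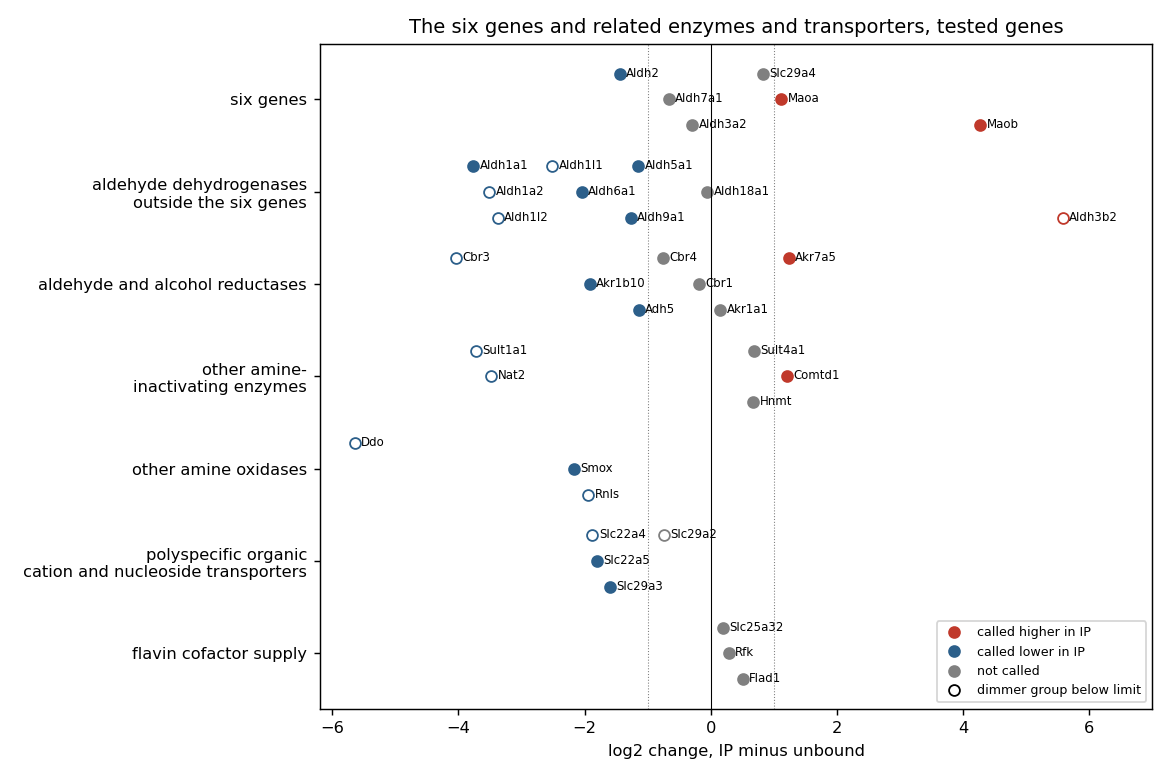
Log2 change, IP minus unbound, of each tested gene of the 6 genes described and of the 6 related lists; red is called higher in IP, blue called lower, grey not called, and open circles mark genes whose dimmer group had 3 arrays under the detection limit. Of the 31 related genes 18 are blue, many of them open. Maob and Aldh3b2 stand apart on the right, Aldh3b2 as an open circle whose direction the filter fixed.

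The genes nearest to each called gene by Euclidean distance between scaled log2 values over the 6 arrays were looked up without regard to function. For Maob they were Irs4, an insulin receptor substrate, at a distance of 0.75 and a log2 change of 4.01, and Bex4 at 1.03 and a log2 change of 3.78. For Maoa they were Uxt at 0.21 and Gfer at 0.27, with log2 changes of 1.04 and 1.05. For Aldh2 they were Lap3 at 0.32 and Rraga at 0.42, with log2 changes of -1.33 and -1.35.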

How the data were processed

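RNA was amplified from 20 ng per sample by 2 rounds of Affymetrix amplification (label protocol). The authors made the deposited log2 values with GCRMA within each group separately, per the labels' design text, which names no version. The log2 scale was read from the values. As that text recommends, IP values were aligned on the 18 biotinylated controls. Genes were named from the platform annotation (34945 probe sets with 1 symbol, 932 with several, 9160 with none, 64 controls), and each was read by its brightest probe set. The test was limma 3.58.1 (R 4.3.3), two-sided, with group as the only term and p-values adjusted by Benjamini-Hochberg over 10581 genes. It was tested on simulated data. A fold given as at least a value counts dim arrays at the detection limit of 5. Counts over genes with both group means at or over that limit were added after seeing the data. Marker sums add the linear values of each list's probe sets.

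The labels number each unbound sample after its IP replicate, and same-numbered samples deviated together (r = 0.27, 0.16 and 0.10 across genes), although IP replicate 3 correlated more with unbound replicate 2 (0.21). The labels call them biological replicates. The 6 genes, the lists and the tests were chosen with earlier results of these data known, Maob and Maoa being among those results. From each related list up to 4 called genes with the largest change were named, or 2 where none was called. Others are named where a count was made specific. Alternatives were other scalings, filters, probe set summaries, removal of identical values, a replicate block and leaving out each array.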

Additional observations from a re-analysis of the deposited data

How the results depend on the processing

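Leaving out each array in turn changed no call of the 6 genes: the log2 change ranged from 4.20 to 4.36 for Maob, 1.05 to 1.18 for Maoa, 0.76 to 0.88 for Slc29a4, -0.34 to -0.23 for Aldh3a2, -0.84 to -0.53 for Aldh7a1 and -1.66 to -1.29 for Aldh2. With the replicate block Maob kept its log2 change of 4.27 (limma, adjusted p = 2.78e-05), and the block changed no call of the 6 genes (1108 genes higher and 4360 lower in all). The scaling between groups moved most. Against 1104 higher and 4354 lower genes, there were 2507 and 2479 under quantile normalisation, 2727 and 2592 with the median of expressed probe sets, 3581 and 2057 with the median of all probe sets, 35 and 9992 with the poly-A controls, and 1748 and 7233 probe sets when each was tested alone. Among the 6 genes, 0 were lower under the first 3 of these, and 1 was higher and 5 lower with the poly-A controls. In that order of the first 3 scalings, Aldh2 had -0.74, -0.70 and -0.42 (no longer called), Aldh3a2 0.61, 0.45 and 0.74 and Slc29a4 1.30, 1.57 and 1.85 (called), while Aldh7a1 had 0.0774 and 0.37 with the medians. Slc29a4 was also called without scaling (1.06) and by the mean of its probe sets (1.03). With the poly-A controls Maoa was at -1.56, Slc29a4 at -1.85, Aldh3a2 at -2.97, Aldh7a1 at -3.34, Akr7a5 at -1.44, Comtd1 at -1.47, Flad1 at -2.17 and Rfk at -2.39. In the related lists, 3 higher and 18 lower genes became 7 and 10 under quantile normalisation, 10 and 9 with the median of all probe sets and 1 and 30 with the poly-A controls. The higher ones numbered 8 with the median of expressed probe sets, 5 with the mean of probe sets and 1 without identical values, which left 11 lower, and the filter at log2 7 left 10 lower. Quantile normalisation gave within-array changes of 2.75 for Maob minus Maoa, 5.29 for Maob minus Aldh2 and 0.50 for Maoa minus Slc29a4, the last being -0.0293 with the mean of probe sets. Which scaling is right was not tested. The filter at log2 7 and the removal of identical values leave fewer genes to test, and the mean of probe sets reads other probe sets, so these moved values with no change of scaling. Aldh7a1 had no value by the mean of its probe sets and Aldh3a2 none without identical values, since they were then not tested.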
